A study of Mus musculus with 6 samples.

Results

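Infiltrating myeloid cells from pools of tumor-bearing and control mouse brains were compared by the amount of MHC class II protein on their surface. Cells with a high level were set against cells with a low level within the same hashed sample. The cells were taken from a CITE-seq study, in which antibodies carrying DNA barcodes are counted together with the transcripts of each cell, of C57BL/6 mice (12 weeks old) whose brain cells were selected for CD11b. Each of 3 pools joined 6 hashed samples, namely a female and a male at day 14 after tumor implantation, a female and a male at day 21, and a female and a male control without tumor. All mice were perfused, the tumor-bearing hemispheres or, in controls, whole brains were dissociated with enzymes, and no transgene or other agent is named in the labels. The labels do not say which sample a hashtag marked, nor which tumor cells were implanted, so every comparison lies within a hashed sample and none concerns sex, tumor or day. The series' title places the tumors in glioma.

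A cell counted as infiltrating when it held at least 3 UMIs (distinct transcript molecules) of Ms4a7, Ly6c2, Plac8 and Ccr2 together, at most 1 UMI of the microglia genes P2ry12, Tmem119, Siglech and Gpr34, and at most 1 of Nkg7, Flt3 and Ccr7, which mark lymphoid and dendritic cells. Of 36755 barcodes, 22157 passed the limits on UMIs, mitochondrial RNA and hashtag purity, and 7128 of those were infiltrating cells under hashtags 3 to 6. Under hashtags 1 and 2 there were 18, 36 and 2 such cells in pools 1, 2 and 3, and these were not used. Within each hashed sample the cells were ranked by their MHC-II tag relative to the 10 protein tags that the pools share. The highest 25% formed the high gate and the lowest 25% the low gate, 1773 cells each in 11 hashed samples, with 25 to 289 cells a gate. The sample of pool 3 under hashtag 3 had 23 infiltrating cells and gave no gates.

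MHC class II molecules are pairs of an alpha and a beta chain that carry peptides from the endosome to the cell surface, where CD4+ T cells read them. Their chains are assembled with the invariant chain CD74, loaded with peptide by H2-DM under the control of H2-DO, and transcribed when the coactivator CIITA joins the factors bound at their promoters. Monocytes that enter an inflamed brain carry little MHC class II, which rises as they turn into macrophages or dendritic cells and on exposure to interferon gamma.

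The pools held 13925, 11010 and 11820 barcodes with median depths of 4451, 8129 and 4689 UMIs. Pool 3 stood apart, with 83.6% of its barcodes lacking a hashtag with 80% of the hashtag UMIs. Between pairs of pools 32 to 53 barcodes were shared, 1 of them in the gates. Gates summed to 196434 to 2659178 UMIs (high) and 174053 to 2436405 UMIs (low).

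The values that chose the gates are a description. The median MHC-II tag count of a hashed sample lay between 1880 and 4062 in the high gates, with a median of 2999, and between 43 and 667 in the low gates, with a median of 176.5. The lowest low gate was that of pool 2 under hashtag 3, and the highest was that of pool 2 under hashtag 4. On the ranking scale, the natural log of tag counts, the last cell inside the high gate lay at a median of 1.80 and the first cell outside it at 1.79, and the corresponding cells of the low gate lay at 0.32 and 0.33.

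The promoters of the MHC class II genes are shown because these genes moved together between the gates. CIITA acts through the X box and the Y box, and the core letters GNAAC of the X box and ATTGG of the Y box are in capitals. The stretches are from RefSeq for GRCm38.p6, all on chromosome 17. They are read 5′ to 3′ on the strand of the gene, minus for H2-Aa at chr17:34287847-34287924 and plus for H2-Eb1 at chr17:34305756-34305832, H2-Oa at chr17:34092283-34092360, H2-Ob at chr17:34238798-34238872 and H2-DMb1 at chr17:34153077-34153154.
H2-Aa: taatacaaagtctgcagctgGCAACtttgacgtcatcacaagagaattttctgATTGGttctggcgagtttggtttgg
H2-Eb1: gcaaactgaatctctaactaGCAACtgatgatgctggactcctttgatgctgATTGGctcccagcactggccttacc
H2-Oa: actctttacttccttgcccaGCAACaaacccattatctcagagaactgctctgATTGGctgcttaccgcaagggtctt
H2-Ob: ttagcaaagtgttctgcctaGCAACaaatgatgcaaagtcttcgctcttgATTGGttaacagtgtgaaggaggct
H2-DMb1: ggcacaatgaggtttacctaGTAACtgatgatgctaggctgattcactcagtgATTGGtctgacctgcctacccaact
ATTGG began 48 bases before the start of H2-Aa, 59 before H2-Eb1, 43 before H2-Oa, 57 before H2-Ob and 61 before H2-DMb1. In these promoters GNAAC began 33, 32, 33, 30 and 33 bases further upstream. Of 8 listed genes with a window used here, all 8 held ATTGG or its complement and 6 held GNAAC followed by ATTGG at a spacing of 30 to 34 bases, H2-Eb2 being the one not printed. H2-Ab1 and Ciita had no entry. The pair was found on either strand in 0.855% of 32851 RefSeq windows of 300 bases, and ATTGG or its complement in 37.4%. The spacing was set after these promoters had been read, the letters overlap no other motif searched, and a match is a description of the sequence.

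RNA of the MHC class II chains followed the protein. All 9 chains that passed the filter on low counts were higher in the high gate, where 1224 of the 7439 genes tested, or 16.5%, were called higher and 1482, or 19.9%, lower (edgeR's quasi-likelihood test with the hashed sample as a block, Benjamini-Hochberg adjustment). The median log2 fold change of the 9 chains was 2.78, against 0.01 over all genes tested. Without pool 1, 283 genes were called higher and 577 lower. Of the 11 chains listed, H2-Ea was not analysed here, and H2-Eb2 had 23 UMIs in the high gates and 0 in the low gates and did not pass the filter. The hashed samples are separate samples by their labels, but nothing says which animals they came from, so p-values measure the spread of within-sample differences, which may be partly technical.

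The alpha chain gene H2-Aa had 83.8 to 99.2 UMIs per 10000 in the 11 high gates, with a median of 89.5, against 0.893 to 59.4 in the low gates, with a median of 13.04. The high gates lay close together and all above the low gates, whose levels spread widely. The log2 fold change was 2.77 ± 0.42 (SE, n = 11 pairs, edgeR adjusted p = 6.57e-05). Rises and falls given without a unit hereafter are log2 fold changes of the high over the low gate, with the SE after ±. Its partner H2-Ab1, a beta chain gene, had 105 to 122 UMIs per 10000 in the high gates and 1.44 to 81.1 in the low gates, a log2 fold change of 2.77 ± 0.43. For the beta chain gene H2-Eb1 the high gates held 76.2 to 94.0 and the low gates 0.687 to 50.9, a log2 fold change of 3.24 ± 0.47. Cd74, the invariant chain, had 199 to 319 UMIs per 10000 in the high gates and 10.97 to 167 in the low gates, a log2 fold change of 2.0 ± 0.28. None of these 4 genes overlapped between gates, as was so for 0.538% of all genes tested.

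**Figure D1:**
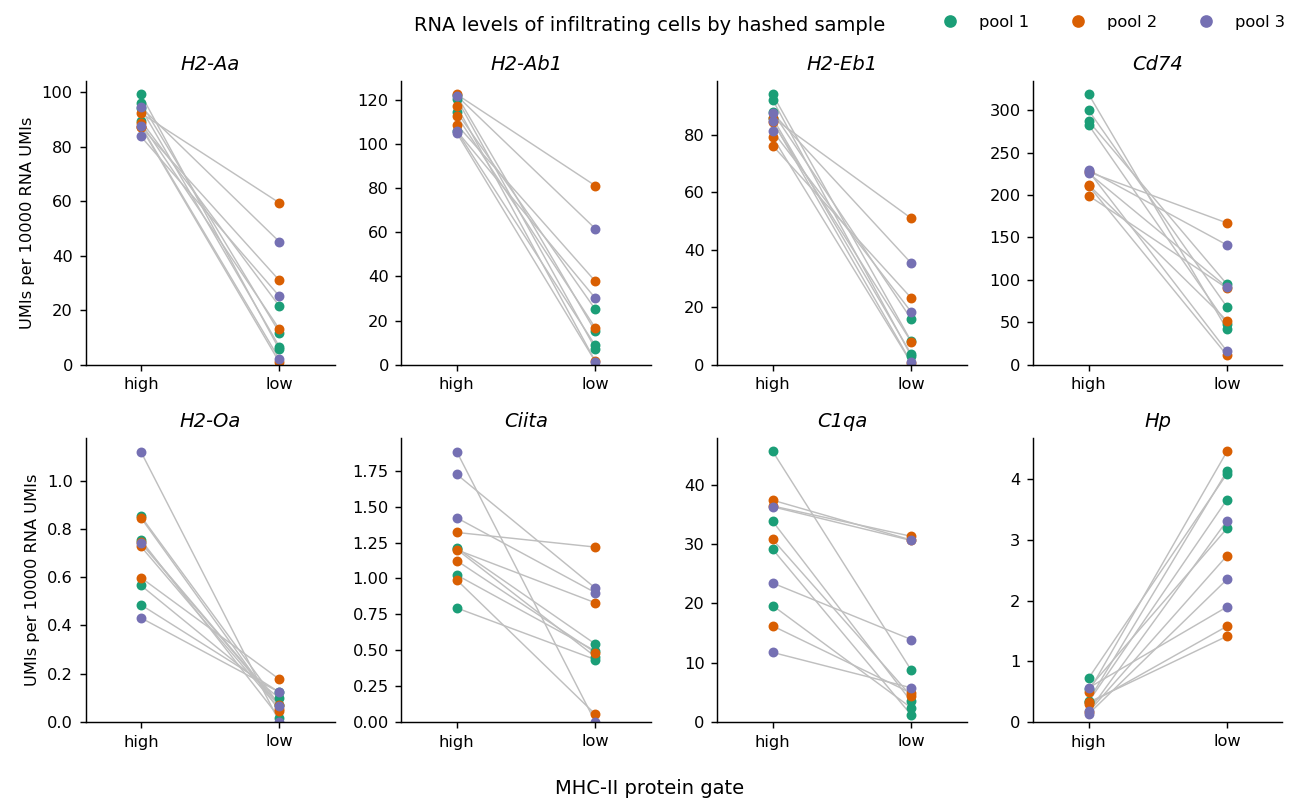
RNA levels in UMIs per 10000 RNA UMIs of infiltrating cells, in the high gate (left) and the low gate (right) of MHC-II protein, with 1 point per gate and hashed sample, coloured by pool, and lines joining the gates of a sample. H2-Aa lies at 83.8 to 99.2 in the high gates and at 0.893 to 59.4 in the low gates, while Hp runs the other way.

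Samples differed in how low the low gate was. The H2-Aa level of the low gate was 0.893 UMIs per 10000 in pool 2 under hashtag 3 and 2.07 in pool 3 under hashtag 4, but 59.4 in pool 2 under hashtag 4 and 45.1 in pool 3 under hashtag 6. Macrophage-leaning cells, those with more UMIs of Ms4a7 than of Ly6c2 and Plac8 together, were a median of 32.8% of the high gate and 2.28% of the low gate. In pool 2 under hashtag 4 they were 54.0% of the high gate and 35.5% of the low gate. Since infiltrating cells were chosen on Ms4a7, Ly6c2, Plac8 and Ccr2, those genes are given without a test, at 7.87, 15.1 and 1.70 UMIs per 10000 (medians of the high gates) and 22.0, 47.3 and 4.46 (medians of the low gates) for Ly6c2, Plac8 and Ccr2. These 3 were higher in the high gate in 0 of 11 samples. Ms4a7 was higher there in 7 of 11, with a log2 fold change of 0.72.

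The peptide loading chains rose as well, at low RNA levels for most of them. H2-DMb2, a beta chain of H2-DM, had 0.388 to 1.19 UMIs per 10000 in the high gates against 0.0155 to 0.227 in the low gates, without overlap (log2 fold change 2.90 ± 0.24). H2-Oa, the alpha chain of H2-DO, had 0.431 to 1.12 in the high gates and 0 to 0.176 in the low gates, a log2 fold change of 2.99 ± 0.22. H2-Ob, its beta chain, had 325 UMIs in all high gates and 27 in all low gates (3.16 ± 0.29). H2-DMa and H2-DMb1 rose less, with log2 fold changes of 0.53 ± 0.11 and 1.08 ± 0.24, each higher in 10 of 11 samples. H2-DMb1 and H2-DMb2 are near copies, so reads may have been split between them. Without pool 1 the H2-DMb1 call was lost at a log2 fold change of 0.94, and the other 8 chains stayed called.

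Ciita, the coactivator itself, had 0.794 to 1.88 UMIs per 10000 in the high gates, with a median of 1.20, and 0 to 1.22 in the low gates, with a median of 0.49. It was higher in 11 of 11 samples although the gates overlapped, by a log2 fold change of 1.07 ± 0.22 (edgeR adjusted p = 0.00119). Of 17 tested genes of MHC class II control and antigen processing, 2 were called higher and 3 lower. Over all genes tested the shares were 16.5% and 19.9%, so these counts do not set the list apart. Ctsz, a lysosomal protease gene, was the other call, at 0.23 ± 0.07. Sppl2a, the protease that cleaves the remnant of CD74, fell in 11 of 11 samples, with -0.91 ± 0.10. The factor genes Rfxap and Nfyb fell with a log2 change of -0.29 and -0.34, calls that were lost on several settings, among them the leaving out of pool 1 or pool 2. Ctsz lost its call without pool 1. Without pool 1, 1 gene of this list was called higher and 1 lower.

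The gate was then compared with gates set in the same way on each of the other 9 shared tags, which asks whether the RNA went with the MHC-II tag more than with another. Gates on MHC-II gave a mean log2 ratio of 2.98 for H2-Aa, with 0.64 to 6.60 over the samples. Gates on PD-L1 gave 0.36 and gates on CD45 gave 0.17, while Ly6C gates gave -1.47. The MHC-II gate had the larger ratio in 11 of 11 samples for each of 27 pairs of tag and gene, with H2-Aa, H2-Ab1 and Cd74 as genes (exact two-sided sign-flip permutation test, adjusted p = 0.000977, the smallest that 11 samples can give). Gates on the CD74 tag gave a mean log2 ratio of -0.13 for Cd74 RNA, against 2.09 for gates on MHC-II. With raw tag counts in place of the relative scale, CD74 gates gave 0.02, higher in 6 of 11 samples, and Ly6C gates gave -0.61 for H2-Aa. The antibody behind the CD74 tag was raised against CD74 (CLIP), per the labels. That tag had low counts, with medians of 27 and 36 in the high and low MHC-II gates, against 2999 and 176.5 for MHC-II. CD52, at 20 and 38, and Tmem119, at 11 and 15, were low as well. How well such counts rank cells was not tested.

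**Figure D2:**
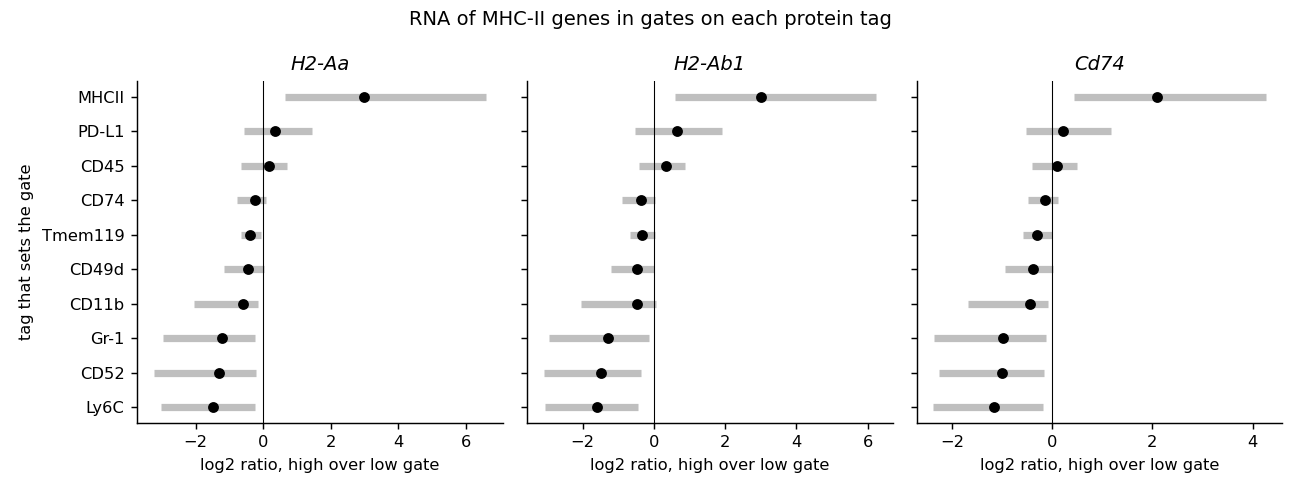
Log2 ratio of H2-Aa, H2-Ab1 and Cd74 RNA between the high and the low gate of each protein tag, with the mean over 11 hashed samples as a point and the lowest to highest sample as a bar. The MHC-II gate stands at 2.98 for H2-Aa, and every other tag has a mean below that, the nearest being PD-L1 at 0.36.

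Within a sample MHC class II RNA rose with the rank of the MHC-II tag. The rank correlation (Spearman's rho over single cells) between the ranking value and the summed RNA of the MHC class II genes was 0.67 at the median of 11 samples, and ran between 0.40 in pool 2 under hashtag 4 and 0.87 in pool 2 under hashtag 3. Both measures come from the same cells, whose depth they share. Over 4 bins of 25% of the cells each, low to high, H2-Aa had median levels of 13.4, 59.98, 78.5 and 89.5 UMIs per 10000. H2-Aa, H2-Eb1 and Cd74 rose over all 4 bins in 11 of 11 samples, and H2-Ab1 did so in 10. Ciita rose over all 4 in 6 samples, with medians of 0.51, 0.84, 0.94 and 1.20. In pool 2 under hashtag 3 the ranking values had a peak of 80 cells between -1.5 and -1.25. They had a trough of 12 cells between 0.25 and 0.5, and a further peak of 33 between 1.75 and 2. Pool 2 under hashtag 4 had mainly a single peak, of 133 cells between 1.25 and 1.5. Whether the rise over the bins is a gradient or a mix of low and high cells was not tested.

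**Figure D3:**
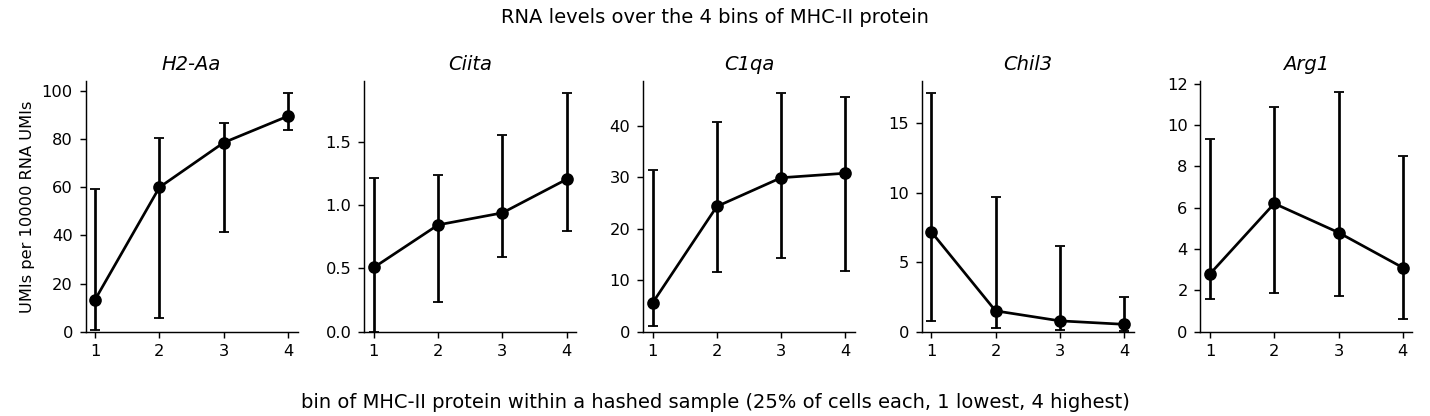
RNA levels in UMIs per 10000 RNA UMIs over 4 bins of MHC-II protein within a hashed sample, 25% of the cells each and the lowest left, with the median of 11 samples as a point and the lowest to highest sample as a bar. H2-Aa and Ciita climb over the bins, Chil3 drops, and Arg1 is highest in bin 2, at a median of 6.2, with 3.1 in bin 4.

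Genes of blood monocytes fell together. All 19 tested monocyte genes were lower in the high gate, against 19.9% of all genes tested, with a median log2 fold change of -1.49. Hp, the gene of haptoglobin, had 0.129 to 0.719 UMIs per 10000 in the high gates against 1.41 to 4.46 in the low gates, without overlap, and fell with a log2 change of -3.06 ± 0.18 (edgeR adjusted p = 1.14e-09). Vcan, the matrix proteoglycan versican, fell with a log2 change of -4.26 ± 0.24, with 33 UMIs in all high gates and 492 in all low gates. Chil3, which codes for a chitinase-like protein of inflammatory monocytes, had 0.0828 to 2.48 in the high gates and 0.809 to 17.3 in the low gates, and fell with a log2 change of -3.68 ± 0.30 in 11 of 11 samples. The list is not independent of the choice of cells, which used Ly6c2, Plac8 and Ccr2. With gates set within 4 bins of the Ly6c2 and Plac8 share, 17 of 18 monocyte genes were still lower. Of all 7681 genes tested on that setting 689 were called higher and 1008 lower, together 22.1%.

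Neutrophil RNA moved with the low gate. S100a8, an alarmin of neutrophils and monocytes, had 0.0431 to 0.331 UMIs per 10000 in the high gates and 0.205 to 59.4 in the low gates, a log2 fold change of -5.63. Of the 12 listed neutrophil genes, 3 were tested and all 3 fell, against 19.9% of all genes tested. The 12 summed to 0.353 to 1.05 UMIs per 10000 in the high gates and 0.926 to 151 in the low gates. Cells with 10 or more UMIs of S100a8 and S100a9 numbered 21 in the low gates and 1 in the high gates, and 3 of the 11 low gates held none. With these cells left out before gating, 2 of 3 tested neutrophil genes were still called lower, at a median of -0.64. S100a8, which was used to choose the cells left out, stood at -0.47. In the same fit 18 of 19 monocyte genes were called lower and all 9 MHC class II chains higher.

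Among the other large falls was Il15, a cytokine gene of myeloid cells, at -2.27 ± 0.22. Il18, coding for an interleukin of the inflammasome pathway, had 0.129 to 0.407 UMIs per 10000 in the high gates and 0.554 to 1.78 in the low gates, without overlap, and fell with a log2 change of -2.19 ± 0.13. The chemokine genes Ccl9 and Ccl6 fell with a log2 change of -2.06 ± 0.19 and -1.48 ± 0.18. Thbs1, which codes for thrombospondin, had 0.755 to 2.92 in the high gates and 3.00 to 13.8 in the low gates, without overlap, and fell with a log2 change of -1.95 ± 0.16. F13a1, the A subunit of coagulation factor XIII, fell with a log2 change of -1.83 ± 0.18 and Slpi, a protease inhibitor, with -2.24 ± 0.21. Ltb4r1, the receptor of leukotriene B4, fell with a log2 change of -1.80 ± 0.14, and Slfn4 and Trim30c with -1.94 and -2.0.

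Adhesion and migration genes fell in 16 of 19 tested cases and rose in 1, with a median log2 fold change of -0.65. Over all genes tested 19.9% were called lower and 16.5% higher. Cd44, the hyaluronan receptor, had 0.601 to 1.43 UMIs per 10000 in the high gates and 1.47 to 4.25 in the low gates, without overlap, and fell with a log2 change of -1.12 ± 0.12. Vim, the intermediate filament gene vimentin, fell with a log2 change of -0.80 ± 0.09. Itgam and Ptprc, which code for the measured proteins CD11b and CD45, fell with a log2 change of -0.71 ± 0.10 and -0.70 ± 0.10, and Itga4, coding for CD49d, with -0.82 ± 0.13. Without pool 1 Itga4 stood at -0.52, still called. Cd9, a tetraspanin, was the rise, at 0.58 ± 0.12, and was not called without pool 1. Of 16 tested hypoxia and glycolysis genes 12 fell and 1 rose. Pkm, Eno1 and Pgk1, enzymes of glycolysis, fell with a log2 change of -0.54, -0.39 and -0.42 in 11 of 11 samples each. Without pool 1, 7 genes of that list fell and none rose. Without pool 2, 8 fell.

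Complement and tissue macrophage genes rose in part, with 6 of 18 higher and 2 lower, against 16.5% and 19.9% of all genes tested. C1qa, a chain of the complement component C1q, had 11.7 to 45.6 UMIs per 10000 in the high gates, with a median of 30.8, and 1.17 to 31.3 in the low gates, with a median of 5.75. It was higher in 11 of 11 samples, by a log2 fold change of 1.77 ± 0.34 (edgeR adjusted p = 0.000532), and the other chains C1qb and C1qc, named after their values had been seen, rose by 1.32 and 1.56. Without pool 1 C1qa stood at 0.96, still called. The 3 low gates with C1qa over 30, pool 2 under hashtags 4 and 6 and pool 3 under hashtag 6, were also the 3 richest in macrophage-leaning cells. Cd72, coding for a lectin-like coreceptor, rose by 2.12 ± 0.28 and Cd81, a tetraspanin, by 0.94 ± 0.14, whereas the transcription factor gene Maf fell with a log2 change of -0.50 ± 0.08. With gates set within bins of the Ly6c2 and Plac8 share, C1qa stood at 0.70, and 4 genes of the list were higher and 6 lower.

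**Figure D4:**
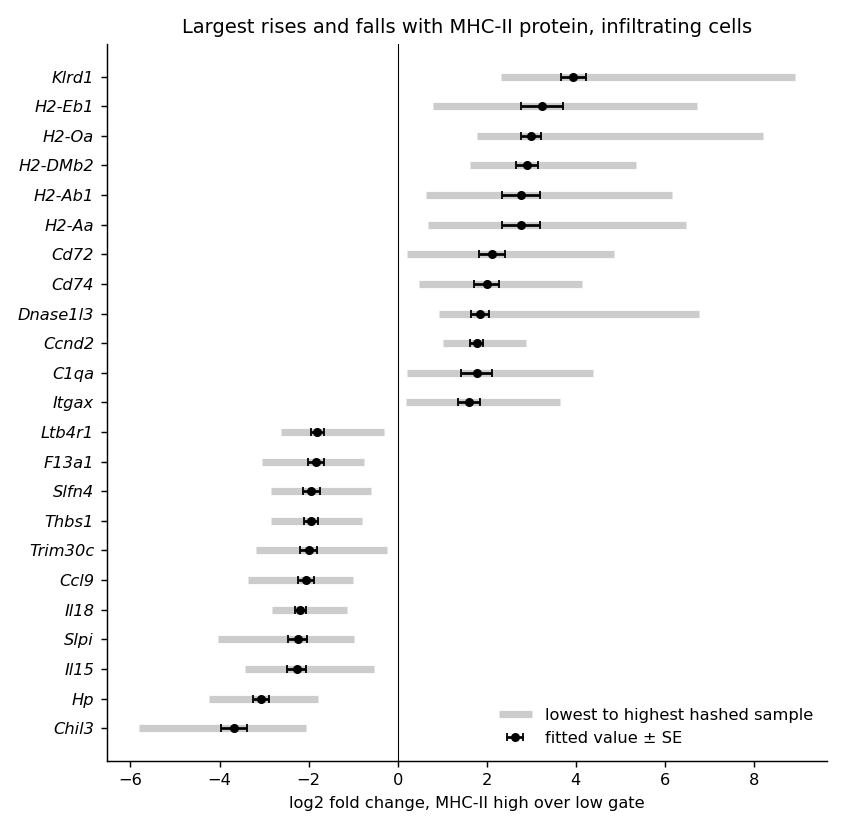
Log2 fold change between the high and the low gate of MHC-II protein for the 12 largest rises and 11 of the 12 largest falls among well-measured genes with the same direction in every sample, with the fitted value ± SE as a point and the lowest to highest of 11 hashed samples as a bar. Klrd1 stands highest at 3.94 and Chil3 lowest at -3.68.

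Dendritic cell genes were 6 higher and 2 lower of 10 tested, against 16.5% and 19.9% of all genes tested. With gates on raw tag counts they were 4 higher and 2 lower of 12. Of all 7523 genes tested on that setting 1325 were called higher and 1529 lower. Klrd1, a lectin receptor gene of NK cells that dendritic cells also express, had 0.134 to 1.90 UMIs per 10000 in the high gates and 0 to 0.0944 in the low gates, without overlap, and rose by 3.94 ± 0.29 (edgeR adjusted p = 1.89e-08). Clec10a, a lectin of type 2 conventional dendritic cells, and Kmo, an enzyme of kynurenine metabolism, rose by 1.86 ± 0.25 and 1.91 ± 0.26 in 10 of 11 samples each, and Itgax, which codes for CD11c, by 1.60 ± 0.24. With gates on raw tag counts Klrd1 and Clec10a stood at 1.66 and 0.95, still called, and Kmo at 0.48 was not called (edgeR adjusted p = 0.125). Dnase1l3, a secreted nuclease of dendritic cells and macrophages, rose by 1.85 ± 0.20, and Ccnd2, a cyclin gene, by 1.78 ± 0.14 without overlap of the gates. Ifi205 and Naaa fell, with -0.82 and -0.26, and neither was called without pool 1. Without pool 2, 4 genes of the list were higher. All 23 listed dendritic genes in the files summed to 33.4 to 58.7 UMIs per 10000 in the high gates and 26.7 to 40.4 in the low gates.

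A UMI of Klrd1 or of 9 stricter dendritic and lymphoid genes was found in 258 of 1773 cells of the high gates, or 14.6%, and in 82 of 1773 of the low gates, or 4.62%. Microglia held such a UMI in 242 of 4723 cells, or 5.12%. With Klrd1 counted, the share of the low gates was thus not above that of microglia. For the 9 stricter genes without Klrd1 the cells were 181 of 1773 in the high gates, 71 of 1773 in the low gates and 88 of 4723 microglia. Most of the 242 microglia thus counted through Klrd1 alone, so microglia do not serve as a background for that gene. For the stricter genes the median share over hashed samples was 3.28% in the low gates and 1.65% in microglia. On these genes the low gates lay above the microglia. The median cell held 8791 RNA UMIs in the high gates, 7158 in the low gates and 5336 among microglia, and the shares were not brought to 1 depth. Xcr1, a marker of type 1 conventional dendritic cells, had 25 and 1 UMIs in all, Clec9a 70 and 16, and Zbtb46 61 and 3, high gates first. Cd209a, a marker of dendritic cells derived from monocytes, had 581 and 97. All cells that held a UMI of Klrd1 or of the stricter genes were then left out. In that fit 8 of 8 tested MHC class II chains were still higher with a median log2 fold change of 2.06. H2-Oa stood at 2.02 there, and H2-Ob was no longer tested. Of 7 dendritic genes 1 was higher and 2 lower, where 1259 of 7262 genes tested were called higher and 1480 lower. Clec10a then stood at 0.67 (edgeR adjusted p = 0.0634), and Klrk1, an NK receptor gene, at -0.27. Over all cells Klrk1 rose by 0.51, a call that was lost without pool 2, at 0.29, or pool 3, at 0.37, and stood at 0.96 without pool 1. The T cell gene Cd3e had 0 UMIs in the high gates and 11 in the low gates, and the B cell gene Cd79a 55 and 2. Of 3 tested T and NK cell genes 2 were higher, against 16.5% of all genes tested, and 1 was when any pool was left out. The only tested B cell gene, Ighm, fell with a log2 change of -0.70 and was not called without pool 1, at -0.35. The 14 listed T and NK cell genes summed to 14.1 to 58.7 UMIs per 10000 in the high gates and 12.3 to 52.8 in the low gates. The 10 B cell genes summed to 0.154 to 0.929 in the high gates and 0.306 to 0.901 in the low gates, so both sums overlapped.

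Interferon genes fell with MHC-II protein in these cells. Of 22 tested genes induced by type I interferon, 21 were lower and none higher, with a median log2 fold change of -0.93. Over all genes tested 19.9% were called lower and 16.5% higher. Oas3, an antiviral oligoadenylate synthetase, had 0.347 to 1.83 UMIs per 10000 in the high gates and 0.788 to 2.76 in the low gates, and was lower in 11 of 11 samples (-1.22 ± 0.12, edgeR adjusted p = 4.75e-07). Zbp1, a sensor of nucleic acids, fell with a log2 change of -0.76 ± 0.08 and Oas1a with -0.82 ± 0.10. Of 23 tested genes of the interferon gamma response, 13 were lower and 1 higher, with a median of -0.46. With gates set within bins of the Ly6c2 and Plac8 share, 9 of these were lower and 2 higher, at a median of -0.18, and within bins of RNA UMIs 11 were lower and 2 higher, at -0.22. The type I list then stood at -0.52 and -0.63, with 20 of 22 lower on both settings. Gbp2, a guanylate-binding protein gene, had 2.13 to 7.66 in the high gates and 2.87 to 25.3 in the low gates, and fell with a log2 change of -1.29 ± 0.15 in 11 of 11 samples. Igtp and Gbp3, GTPases of the same response, fell with a log2 change of -0.80 and -0.89, and Nos2, the inducible nitric oxide synthase, rose by 0.58 ± 0.18. Nos2 was not called without pool 1 or without pool 3. Without pool 1, 18 type I genes and 6 interferon gamma genes were lower.

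MHC class I genes did not follow MHC class II. Of 15 tested, 1 was higher and 4 lower, against 16.5% and 19.9% of all genes tested, with a median of -0.11. H2-D1, a classical class I heavy chain, had 30.04 to 51.2 UMIs per 10000 in the high gates and 37.7 to 51.8 in the low gates, a log2 fold change of -0.27 ± 0.07. Nlrc5, the class I counterpart of Ciita, fell with a log2 change of -0.47 ± 0.10 and H2-T23 with -0.31 ± 0.08, and H2-Q7 rose by 0.46 ± 0.11. Class I heavy chains resemble each other, so reads may have been split among them. Without pool 1 edgeR's test called none of the 15, with 1 higher and 3 lower at an unadjusted p under 0.05, and without pool 3 there were 7 lower. H2-Q7 stood at 0.22 without pool 1 and at 0.73 without pool 2.

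The same gates were set on microglia of the same pools, to ask whether the difference depends on the class of cell. Microglia held at least 3 UMIs of the 4 microglia genes and at most 1 of the 4 genes of infiltrating cells, and 9 hashed samples gave both gates of both classes, with 1676 infiltrating cells and 1090 microglia per gate. The median log2 fold change of the MHC class II chains was 2.99 over 9 chains in infiltrating cells. In microglia it was 2.30 over 8 chains, as H2-DMb2 was not tested there. The rank correlation of the MHC-II tag with MHC class II RNA over single microglia was 0.72 at the median of 10 samples, but 0.06 in pool 2 under hashtag 3 and in pool 3 under hashtag 3, and 0.16 in pool 3 under hashtag 4. H2-Aa rose over all 4 bins in 7 of the 10 microglia samples. Pool 2 under hashtag 3 and pool 3 under hashtag 4 are among the 9 samples of the interaction. The span of the MHC-II tag between the gates was not compared between the classes, and its part in the interaction was not tested. The interaction of gate and class was called for 1 of 9 chains, H2-Ob, at 2.0, where 1747 of 8700 genes, or 20.1%, were called. That call was lost with gates on raw tag counts, at 0.86, and without pool 2, at 1.12. Without pool 1, 424 genes were called. H2-Aa had an interaction of -0.08 with an adjusted p of 0.959. Ciita had a called interaction of -1.89 (edgeR adjusted p = 0.00857), though it was not tested in microglia alone. Of 18 genes of MHC class II control and antigen processing, 6 had an interaction called lower and 0 higher, against 13.8% of all genes called lower.

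Several other groups differed between the classes. Type I interferon genes were lower in 22 of 22 tested cases in infiltrating cells of these samples and higher in 18 of 19 in microglia, where 10.3% of genes were called higher and 7.26% lower. Their interaction was called lower in all 22, against 13.8% of all genes, with a median of -1.91. For the interferon gamma response, 14 of 23 fell in infiltrating cells and 16 of 20 rose in microglia. For MHC class I, 5 of 15 fell in infiltrating cells and 14 of 15 rose in microglia. Gbp2 fell with a log2 change of -1.36 in infiltrating cells and rose by 1.52 in microglia, and Zbp1 fell with a log2 change of -0.81 and rose by 1.36. Of 6485 genes tested in both classes, 223 were called lower in infiltrating cells and higher in microglia and 36 the other way, all with a called interaction. Under scaling by library size alone the median interaction of all genes was 0.25 in place of 0.01, and 1614 genes were then called higher and 667 lower in place of 550 and 1197. The interaction was lower in 22 of 22 type I genes and in 12 of 15 MHC class I genes under that scaling as well. Cell cycle genes had medians of 0.43 over 8 genes in infiltrating cells and 0.41 over 14 in microglia. Dissociation genes had medians of -0.24 in infiltrating cells and -0.21 in microglia.

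**Figure D5:**
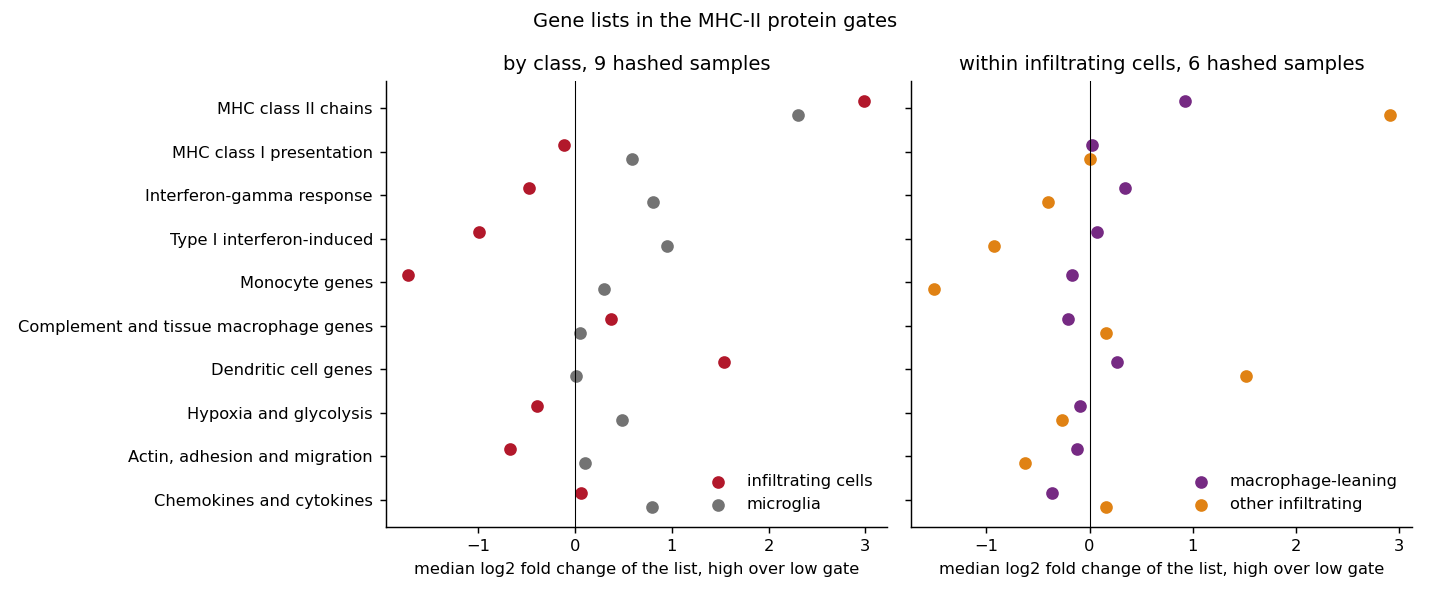
Median log2 fold change between the high and the low gate of MHC-II protein for 10 gene lists, in infiltrating cells and microglia of 9 hashed samples (left panel) and in macrophage-leaning and other infiltrating cells of 6 hashed samples (right panel). Type I interferon genes stand at -1.0 in infiltrating cells and 0.95 in microglia, and at 0.07 in macrophage-leaning and -0.93 in other infiltrating cells.

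Infiltrating cells were also split by state. The 1612 macrophage-leaning cells gave gates in 6 samples, 355 cells each, and 5516 other infiltrating cells gave 948 a gate in the same samples. The gates of the macrophage-leaning cells were nearer to each other, with median MHC-II tag counts of 3787 (high) and 835.5 (low), against 3260 (high) and 160 (low) among the other cells. Among macrophage-leaning cells 1.77% of 5192 genes were called, 50 higher (0.963%) and 42 lower (0.809%). Among the other cells 32.7% of 6951 were called, 15% higher and 17.7% lower. The gates of the 2 states differ in cell number and in the span of the tag, and the part of these in the comparison was not tested.

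In macrophage-leaning cells H2-Aa had 79.1 to 92.9 UMIs per 10000 in the 6 high gates and 12.8 to 63.0 in the low gates. It rose by 1.27 (edgeR adjusted p = 0.000869). The rise was 2.91 in the other cells, and the interaction of -1.61 was called. Over the chains the interaction was called lower in 6 of 9, against 5.26% of all genes. In macrophage-leaning cells 4 of 7 tested chains were called higher, and H2-Oa and H2-Ob did not pass the filter. H2-DMa, H2-DMb1 and H2-DMb2 were not called there, at 0.23, 0.35 and 0.76, nor was Ciita, at 0.39. C1qa, at 0.21, was not called in macrophage-leaning cells and rose by 2.29 in the others (interaction -2.06), and Cd72 stood at -0.02 and rose by 2.44. Of the type I interferon genes, edgeR's test called 0 of 20 in macrophage-leaning cells, with 3 higher and 0 lower at an unadjusted p under 0.05, and 21 of 22 lower in the others. Their interaction was called higher in 18 of 22, against 7.16% of all genes. For the interferon gamma response 4 of 21 were higher and none lower in macrophage-leaning cells, 2 were higher and 14 lower of 23 in the others, and the interaction was called higher in 14 of 23.

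Cxcl9, a chemokine gene induced by interferon gamma, had 5.85 to 16.2 UMIs per 10000 in the high gates of macrophage-leaning cells and 0.945 to 9.72 in the low gates. It was higher in 6 of 6 samples, by 1.64 ± 0.15 (edgeR adjusted p = 9.77e-06), stood at -0.06 in the other cells, and its interaction was 1.73. Irf1, a transcription factor of the response, rose by 0.44 in macrophage-leaning cells and fell with a log2 change of -0.52 in the others. Cd40, the receptor of the T cell ligand CD40L, rose by 0.96 in macrophage-leaning cells and fell with a log2 change of -0.37 in the others, and Slamf7, a receptor of the SLAM family, rose by 0.80. Lgals3, the gene of galectin 3, rose by 0.74 and Acod1, which codes for the enzyme that makes itaconate, by 1.04. Arg1, the arginase gene of repair and suppressive macrophages, fell with a log2 change of -0.97 in 6 of 6 samples, stood at 0.06 in the other cells, and had an interaction of -1.01 (edgeR adjusted p = 0.0317). Fn1, fibronectin, and Pf4, a chemokine gene that border macrophages express, fell with a log2 change of -1.19 and -1.27. The genes named for macrophage-leaning cells were chosen after their values had been seen.

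Among the genes of costimulation and adhesion, 4 of 13 were higher and 2 lower over all infiltrating cells. The shares over all genes tested were 16.5% and 19.9%. Pdcd1lg2, the gene of PD-L2, rose by 1.5 ± 0.13 and Tnfsf9, the ligand of 4-1BB, by 0.81 ± 0.13, each in 10 of 11 samples. Lgals9, galectin 9, fell with a log2 change of -0.74 ± 0.10, and Vsir, an inhibitory ligand, with -0.44 ± 0.08. Without pool 2, 2 genes of this list were higher and 3 lower. Without cells of dendritic or lymphoid RNA 1 was higher and 3 lower, and Tnfsf9 was not called, at 0.23 (edgeR adjusted p = 0.162). Cxcl16, a chemokine gene, rose by 0.71 ± 0.09 in 11 of 11 samples. Hmox1, heme oxygenase, and Tgfb1 fell with a log2 change of -0.75 and -0.58, and neither was called without pool 1.

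Protein tags other than MHC-II entered the ranking, so their levels are a description. On the scale relative to the 10 tags, Ly6C, Gr-1 and CD52 were lower in the high gate in 11 of 11 samples, with mean differences of -1.01, -1.07 and -0.87 natural log units. That scale sets a tag against the others, MHC-II among them. Between gates on raw tag counts, the mean log2 ratios of the raw counts were 0.00124 for Ly6C, -0.00187 for Gr-1 and -0.0262 for CD52, higher in 3, 5 and 3 of 11 samples. PD-L1 was higher in 11 of 11 samples by 0.50, while Cd274, its gene, had 1.09 to 3.69 UMIs per 10000 in the high gates and 1.07 to 2.98 in the low gates and was not called (-0.12, edgeR adjusted p = 0.33). The CD74 tag differed with -0.20 on this scale, lower in 10 of 11 samples. Between gates on raw tag counts its raw count was higher in 11 of 11 samples, by 0.64 in log2. CD52 and its gene were both lower, the gene with -0.34 ± 0.07.

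The gates differed in depth and staining. The median cell held more RNA UMIs in the high gate in 9 of 11 samples, by a mean log2 ratio of 0.22 (SD 0.17, exact two-sided sign-flip permutation test, adjusted p = 0.00521), and a smaller mitochondrial share in 10 of 11, a mean difference of -0.14 percentage points. The other 9 tags summed to fewer UMIs in the high gate in 11 of 11 samples, a mean log2 ratio of -0.93. These tags entered the ranking, so their sum is a description. Without pool 1 or without pool 2 the adjusted p of the RNA UMIs was 0.0833 or 0.0781 (exact permutation tests over 7 samples, which can give an unadjusted p of 0.0156 at the smallest). With gates on raw tag counts the difference of the other tags was 0.04 in log2, while that of the RNA UMIs was 0.41, higher in 11 of 11 samples, and all 9 MHC class II chains were called higher with a median of 2.07. Within bins of RNA UMIs all 9 were higher with a median of 2.23. Without pool 3 all 9 chains were higher, at a median of 2.90, and so were they without pool 2, at 2.92. Summed microglia markers lay at 7.66 to 13.9 UMIs per 10000 in the high gates and 5.79 to 14.5 in the low gates, border macrophage markers at 10.9 to 17.0 and 14.9 to 22.2, and genes induced by dissociation at 88.0 to 128 and 95.8 to 168, high gates first in each pair. The part of these in the results was not tested.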

How the data were processed

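RNA UMI counts and antibody-tag counts per barcode were used as deposited by the authors for 3 pools. They were made with Cell Ranger (3.0.1 and 4.0.0) against mm10, per the submitters' processing notes, while the file headers name 3.1.0 in the first pool and 4.0.0 in the others. The notes also name bcl2fastq 2.20.0.422 and Seurat 3. Genes were joined by identifier, 30406 in all.

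Cells had at least 500 RNA UMIs, under 10% mitochondrial UMIs and 1 of 6 hashtags with at least 80% of the hashtag UMIs. The hashtag limit removes doublets of different samples only, and no doublet caller was run. Cells were ranked by the natural log of 1 plus the MHC-II count minus the mean of that quantity over 10 shared tags, and gates of at least 20 cells were kept. For each gate of a hashed sample the RNA counts of its cells were added up and tested with edgeR 4.0.16 (R 4.3.3): TMM scaling, filterByExpr, quasi-likelihood test, Benjamini-Hochberg adjustment over all genes tested, threshold 0.05. Both gates come from the same hashed sample, which was the block, so the pairing is given by the design. Interactions of gate with class or state used a block per hashed sample and class or state. Cell measures and tag gates were compared by exact two-sided sign-flip permutation tests over hashed samples. The scripts were tested on simulated data.

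The genes named are all MHC class II chains, the 12 largest rises and 12 largest falls with 1 sign in every hashed sample and an average log2 CPM of at least 5, up to 3 genes per direction in each other list by adjusted p, Ciita, and the genes of the measured proteins. A few results of named genes are not reported here. The members and lists were chosen with earlier results of these data known. Alternatives covered raw tag ranks, bins of staining, RNA depth or monocyte RNA, gate width, cell limits, scaling, filters, DESeq2 1.42.0, and leaving out a pool or a hashed sample. Levels are UMIs per 10000 RNA UMIs of a summed gate. They are not corrected for gene length and were not compared between genes. Intervals between samples cover neither animals nor days, which the hashtags do not give. Python 3.11.15 with numpy 2.4.6, scipy 1.17.1, pandas 2.3.3 and matplotlib 3.10.9 was used.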

Additional observations from a re-analysis of the deposited data

Results flagged for a closer look

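In 20 named genes the difference between the high and the low gate of MHC-II protein was called in opposite directions in infiltrating cells and in microglia of 9 hashed samples, and the difference between the classes was itself called by edgeR's test of the interaction. Values are log2, the interaction first and then the fold change of each class. MHC class I genes had Nlrc5 at -1.43 (-0.53 in infiltrating cells, 0.86 in microglia), H2-D1 at -0.96 (-0.27 in infiltrating cells, 0.65 in microglia) and H2-T23 at -1.12 (-0.27 in infiltrating cells, 0.80 in microglia). Interferon genes had Gbp2 at -2.93 (-1.36 in infiltrating cells, 1.52 in microglia), Igtp at -1.69 (-0.87 in infiltrating cells, 0.79 in microglia), Gbp3 at -1.60 (-0.98 in infiltrating cells, 0.58 in microglia), Zbp1 at -2.20 (-0.81 in infiltrating cells, 1.36 in microglia) and Oas1a at -1.72 (-0.82 in infiltrating cells, 0.85 in microglia). Glycolysis enzymes had Pkm at -1.32 (-0.58 in infiltrating cells, 0.70 in microglia), Eno1 at -0.85 (-0.40 in infiltrating cells, 0.40 in microglia) and Pgk1 at -1.23 (-0.43 in infiltrating cells, 0.74 in microglia). Among genes of lipid handling and immune control were Lgals9 at -1.15 (-0.76 in infiltrating cells, 0.35 in microglia), Npc2 at -1.18 (-0.49 in infiltrating cells, 0.64 in microglia), Plin2 at -1.25 (-0.44 in infiltrating cells, 0.76 in microglia) and Il1rn at -1.79 (-0.45 in infiltrating cells, 1.27 in microglia). Vimentin and the gene of a measured protein had Vim at -2.16 (-0.85 in infiltrating cells, 1.32 in microglia) and Cd52 at -1.41 (-0.36 in infiltrating cells, 1.0 in microglia). The other direction was seen for Il7r at 1.30 (0.95 in infiltrating cells, -0.39 in microglia), Egr1 at 0.93 (0.66 in infiltrating cells, -0.31 in microglia) and Fosb at 0.81 (0.53 in infiltrating cells, -0.33 in microglia). The largest adjusted p among the 20 was 0.00496, for Il7r. The genes share samples and control cells within each class, and no cause of the opposite directions was tested.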

How the results depend on the processing

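Of 3719 recomputed values of 99 tested named genes under 38 settings, 3347 kept their direction and side of the threshold, 335 kept their direction and lost the call, and 37 changed sign. Against 1224 genes called higher and 1482 lower, gates within bins of RNA UMIs gave 752 higher, gates within bins of the Ly6c2 and Plac8 share 689 higher, sums per pool 330 higher and 714 lower, a minimum of 50 counts 896 lower (3469 genes tested, 51.4% called, against 36.4%), and macrophage-leaning cells alone 50 higher and 42 lower. Without the block that pairs both gates of a hashed sample, 675 were higher and 923 lower. Leaving out a pool or a hashed sample gave 283 to 1349 higher and 577 to 1591 lower, the lowest counts without pool 1. The interaction of gate and class, called for 1747 genes, was called for 818 within bins of RNA UMIs, 846 without the replicate block, and 424 to 1784 without a pool. With no TMM factors, only library totals, 1495 genes were higher and 1227 lower.

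Without a pool, the high minus low difference of the cell measures ranged between 0.18 and 0.276 for RNA UMIs (log2), 0.133 and 0.205 for genes detected (log2), -0.154 and -0.0969 percentage points for mitochondrial RNA, and -0.978 and -0.858 for the other tags (log2). The last was 0.0361 with gates on raw tag counts.

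Sign changes in macrophage-leaning cells alone were Cd72 -0.0195, Sppl2a 0.0396, Nfyb 0.31, H2-Q7 -0.17, Nlrc5 0.018, H2-D1 0.0441, H2-T23 0.12, Gbp2 0.35, Gbp3 0.15, Zbp1 0.10, Tnfsf9 -0.28, Lgals9 0.0296, Cd81 -0.16, Npc2 0.0714, Plin2 0.13, Mmp14 -0.0587, Mif -0.11, Il1a -0.57, Cxcl2 -0.72, Ccl6 0.31, Ifi205 0.34, Naaa 0.0493, Csf3r 0.33, Mrc1 -0.21, Clec4n -0.24, Egr1 -0.0931, Fosb -0.0659, Atf3 0.11, Tubb5 -0.0259, Cd52 0.12 and Cd274 0.34. Within bins of the Ly6c2 and Plac8 share they were Cd63 -0.10, Cxcl2 -0.0835 and Cd274 0.10. Within bins of RNA UMIs Cxcl2 stood at -0.0858 and Cd274, not called in the first place, at 0.0637, and Klrk1 at -0.27 without cells of dendritic or lymphoid RNA. The cause of these changes was not tested. Bins, cells left out and the split by state were partly chosen after seeing the data. Genes of few UMIs, such as H2-Eb2, could not be tested at this depth.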

Other observations

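Of 8 tested cell cycle genes 3 were higher in the high gate of MHC-II protein and none lower, with a median log2 fold change of 0.45. Over all genes tested 16.5% were called higher and 19.9% lower. Mcm3, a subunit of the replication helicase, rose by 0.83 ± 0.19 and the tubulin gene Tubb5 by 0.71 ± 0.12, each in 10 of 11 samples, and Mcm3 was not called without pool 1. Summed cell cycle genes lay at 14.9 to 17.9 UMIs per 10000 in the high gates and 10.5 to 18.0 in the low gates, which overlapped.

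Genes that enzymatic dissociation is known to induce did not move as 1 group, with 2 of 16 tested higher and 8 lower. Over all genes tested 16.5% were called higher and 19.9% lower. Without pool 1 or without pool 2, 5 dissociation genes were lower. The immediate early genes Egr1 and Fosb rose by 0.69 ± 0.11 and 0.53 ± 0.09, each in 11 of 11 samples. Atf3, a stress transcription factor gene, and Zfp36, which codes for a protein that destabilises cytokine transcripts, fell with a log2 change of -0.54 ± 0.08 and -0.38 ± 0.07. Of 17 tested lipid and lysosome genes 3 were higher and 2 lower, against 16.5% and 19.9% of all genes tested, with a median of 0.11. Mmp12, a macrophage elastase gene, rose by 2.26 ± 0.41 in 9 of 11 samples, and stood at 1.57 with gates on raw tag counts and 1.28 within bins of the Ly6c2 and Plac8 share. Npc2, which carries cholesterol out of lysosomes, and the lipid droplet gene Plin2 fell with a log2 change of -0.45 and -0.42. Without pool 1 the list had 1 higher and 1 lower, and Plin2 was not called, at -0.30. Without pool 2 there were 2 higher and 5 lower of 15, and Mmp12 did not pass the filter on low counts.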
